A study of Mus musculus with 35 samples.

Results

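The genes described here encode enzymes and regulators of cholesterol and fatty acid synthesis in the mouse retina. They were 32 genes chosen by name from a list of the pathway, out of 25655 genes in each of the authors' 8 deposited comparison tables, and all 32 were found and tested in all 8. The tables come from 35 samples of wild-type retina in 7 groups, sequenced as stranded poly(A) messenger RNA in paired reads of 100 bases. The non-diabetic group, ND, held 6 samples. Diabetic groups without depletion were taken after 6 weeks (D6, 5 samples), 8 weeks (D8, 5 samples, labelled with PBS) and 10 weeks of diabetes (D10, 5 samples, labelled with PBS). D8 depleted (4 samples) had 8 weeks of diabetes with DTx for 2 weeks. D10 repopulated (5 samples) had 10 weeks of diabetes with DTx for 2 weeks and then recovery for 2 weeks, and ND repopulated (5 samples) had the same treatment and recovery without diabetes. The labels name DTx where the series text names PLX-5622 in chow, and they hold a single ND group where the series text speaks of non-diabetic animals at each time. How diabetes was brought about, and the age of the mice, are not stated in the labels. The labels do not say whether the samples were separate animals, so the p-values measure the spread between these samples, which may be technical.

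Cholesterol is built from acetyl-CoA through mevalonate and isoprenoid intermediates to squalene, which is closed into a ring and then trimmed in a series of steps. Transcription of these enzymes is controlled by SREBP proteins, which stay in the endoplasmic reticulum with the escort SCAP and the retention proteins INSIG1 and INSIG2 while sterols are plentiful. SREBP-2, encoded by Srebf2, acts mainly on cholesterol genes, and SREBP-1, encoded by Srebf1, mainly on fatty acid genes. The retina both takes up lipoprotein cholesterol and makes its own, and photoreceptor membranes are rich in polyunsaturated fatty acids.

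Promoters are shown for the members called in 4 or more comparisons that have a RefSeq entry in the table used, which leaves out Sqle and Scd2, because SREBP proteins are known to bind sterol regulatory elements beside NF-Y and Sp1 sites. The sequences are the 250 bases before the annotated start in RefSeq on GRCm38.p6, 5′ to 3′ along the gene's own strand. They lie at chr13:119690101-119690350 (Hmgcs1, plus strand), chr13:8885356-8885605 (Idi1, plus), chr5:4104698-4104947 (Cyp51, minus), chr15:82147019-82147268 (Srebf2, plus) and chr3:129532136-129532385 (Elovl6, plus). Capitals mark matches, on either strand, to the sterol regulatory element core TCACNCCAC, to CCAAT and to GGGCGG.
Hmgcs1: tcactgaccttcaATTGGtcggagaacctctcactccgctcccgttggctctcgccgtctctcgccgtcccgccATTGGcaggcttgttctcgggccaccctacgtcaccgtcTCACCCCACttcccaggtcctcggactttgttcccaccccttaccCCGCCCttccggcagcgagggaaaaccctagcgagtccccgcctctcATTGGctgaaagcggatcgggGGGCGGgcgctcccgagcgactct
Idi1: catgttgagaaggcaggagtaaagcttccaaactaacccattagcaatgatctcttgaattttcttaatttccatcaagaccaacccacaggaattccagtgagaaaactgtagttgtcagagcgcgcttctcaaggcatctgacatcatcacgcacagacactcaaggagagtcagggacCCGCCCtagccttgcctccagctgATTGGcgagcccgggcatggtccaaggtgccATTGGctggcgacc
Cyp51: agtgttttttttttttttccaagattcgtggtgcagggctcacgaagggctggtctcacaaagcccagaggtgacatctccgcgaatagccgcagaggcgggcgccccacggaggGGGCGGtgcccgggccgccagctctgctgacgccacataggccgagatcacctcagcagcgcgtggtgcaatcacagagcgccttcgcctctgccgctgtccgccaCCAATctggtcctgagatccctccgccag
Srebf2: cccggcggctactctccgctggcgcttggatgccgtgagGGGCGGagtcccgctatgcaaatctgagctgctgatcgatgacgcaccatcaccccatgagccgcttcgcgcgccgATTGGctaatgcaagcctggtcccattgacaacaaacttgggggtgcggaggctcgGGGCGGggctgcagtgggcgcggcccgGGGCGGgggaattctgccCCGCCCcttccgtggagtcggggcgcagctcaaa
Elovl6: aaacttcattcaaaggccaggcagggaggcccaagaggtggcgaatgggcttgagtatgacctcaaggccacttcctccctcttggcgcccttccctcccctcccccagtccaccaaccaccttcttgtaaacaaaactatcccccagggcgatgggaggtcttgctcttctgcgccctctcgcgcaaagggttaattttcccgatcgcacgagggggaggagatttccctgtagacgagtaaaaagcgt
Hmgcs1 held the sterol regulatory element core 137 bases before its start, with CCAAT matches at 237, 176 and 45 bases and GGGCGG matches at 92 and 24 bases before the start. None of the printed matches overlapped another, and Elovl6 had no match to these letters in the window shown. RefSeq entries of 300 bases, which add 50 bases after the start, were matched for 25 of the 32 members, as 33 promoters. The core TCACNCCAC stood in 1 of these 33 promoters and in 1.24% of all 32851 promoters. CCAAT stood in 21 of 33 against 37.4% of all, and GGGCGG in 25 of 33 against 35.7% of all. A match is a description of letters, not evidence of binding.

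The values are the authors' log2 fold changes, p-values, FDR-adjusted p-values and the larger of the group means compared, whose unit is not stated. A gene was called at an adjusted p under 0.05, and the standard error (SE) of a fold change is the one implied by the deposited p. Values per sample were not analysed here, so sequencing depth is unknown. The tissue label was checked against markers: the ND means of 5 rod markers lay between 534 and 3630 and those of 7 Muller glia markers between 8.86 and 616. All 8 microglia markers fell in D8 depleted against D8, with a median log2 fold change of -4.07. In D10 repopulated, 6 of 8 were called lower against ND and 2 of 8 (Cx3cr1 and C1qa) against D10. In D10 against ND, 2 were called lower (P2ry12 and Fcrls) and 1 higher (C1qa). None of the 8 was called in ND repopulated against ND. Genes of other tissues moved too. The ND means of the 8 lens markers lay between 3.74 and 1484 and summed to 3307, where those of the 7 Muller glia markers summed to 1043. Lens markers were called lower in D8 (7 of 8, median log2 -5.68) and D8 depleted (8 of 8, median log2 -8.98) against ND. In D6 1 lens marker was called higher, and none was called in D10 or D10 repopulated against ND. All 4 keratins of surface epithelium were called higher in D8 depleted and D10 repopulated against ND. Hemoglobin and other red blood cell markers were called lower in D8 (4 of 5) and D10 (5 of 5) against ND. In D8 depleted against D8, 5 lens markers were called lower, and 4 keratins, 4 red blood cell markers and 3 of 6 pigment epithelium markers higher. In D10 repopulated against D10, 4 of 5 red blood cell markers were called higher (median log2 3.81). The part of these tissues in the results on the members was not tested. The numbers in the sample titles run from 2974 to 2983 in D8 and D10 and from 3006 to 3035 in the other groups, so whatever those numbers stand for cannot be told apart from the contrast of D8 or D10 with any other group.

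**Figure D1:**
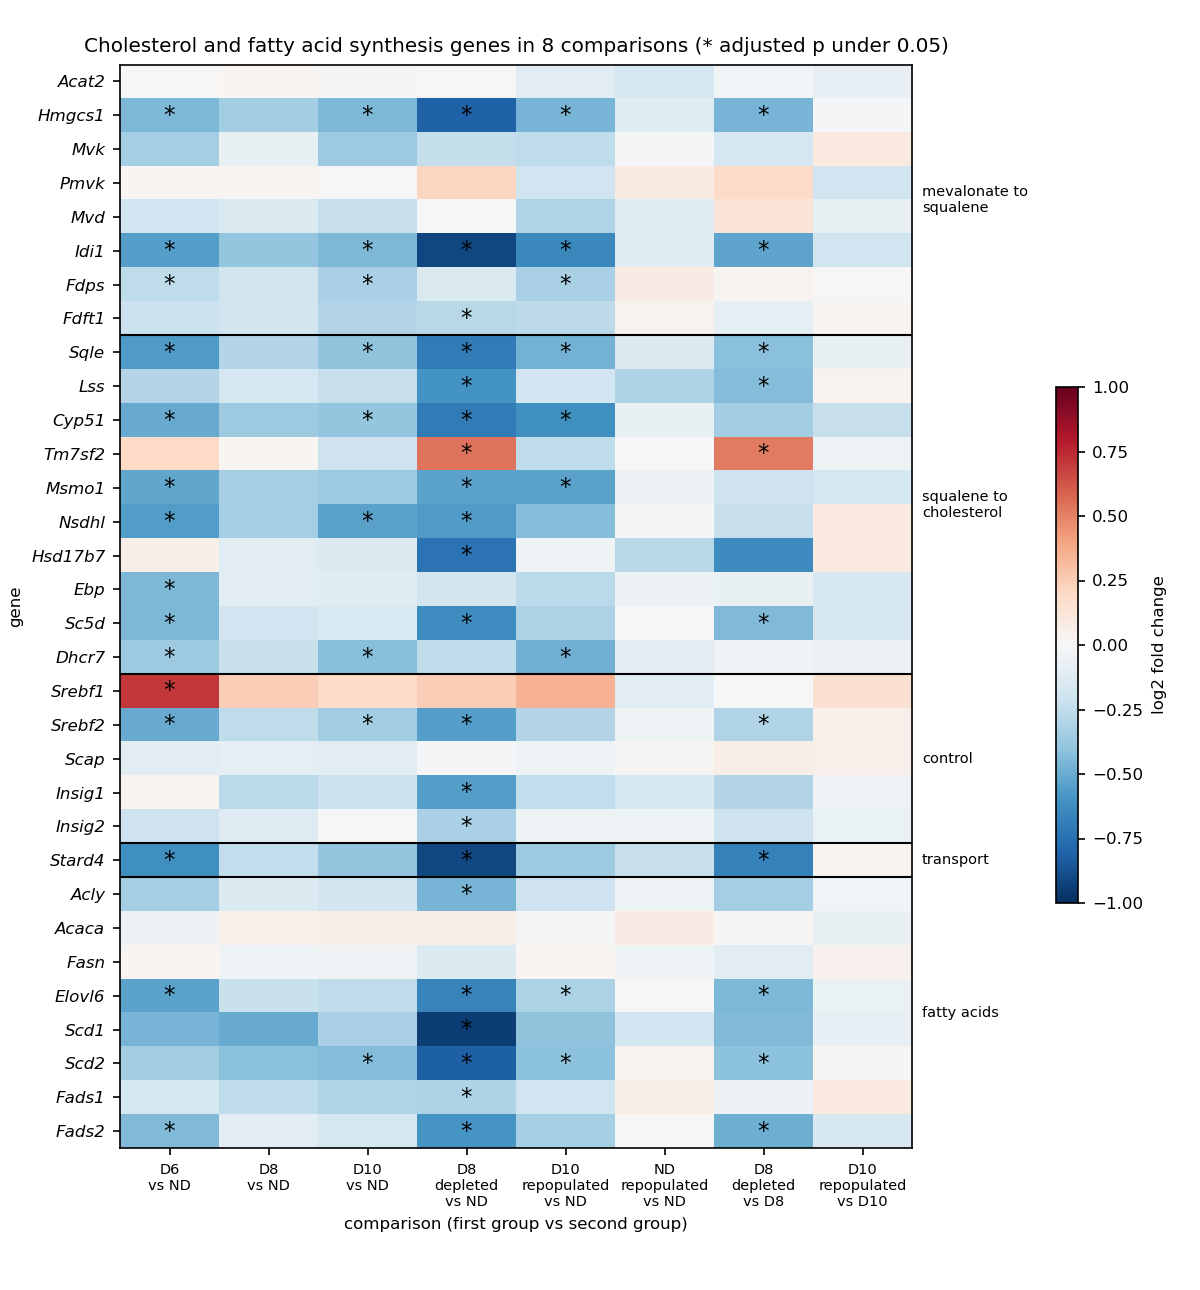
Log2 fold change of the 32 genes (rows, grouped by step of the pathway) in the 8 comparisons (columns); blue is lower and red higher in the first group named, colours end at -1 and 1, and a star marks an adjusted p under 0.05. The D8 depleted column against ND holds the most stars, and the ND repopulated and D10 repopulated against D10 columns hold none.

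Many genes of the pathway were lower in diabetic retina than in ND after 6 and 10 weeks. In D6, 14 of 32 members fell and 1 rose, where 9.31% of all tested genes were called lower and 14.1% higher. The median log2 fold change of the members was -0.34 against 0.04 over all tested genes in the authors' deposited table. Below 0 lay 26 of 32 members and 45.4% of all tested genes. In D10, 9 of 32 members fell and none rose, where 1.41% of all tested genes were called lower. The member median was -0.24, and 29 of 32 lay below 0, as did 49.6% of all tested genes. With a trend on transcript length and GC content taken off, the D10 count was 15, and the share of all genes called lower in that setting was not computed. In D8 no member was called by the deposited adjusted p, where 2.91% of all tested genes were called in either direction. An unadjusted p under 0.05 was found for 13 members, all of them lower, and for 11.3% of all tested genes in either direction. The member median was -0.18, and 27 of 32 lay below 0, as did 49.5% of all tested genes. The smallest adjusted p in D8 was 0.0504, that of Cyp51. Whether the D6, D8 and D10 changes differ from each other was not tested, since these comparisons share the ND samples. In bulk tissue, fewer cells of a type and less RNA per cell cannot be told apart.

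The comparison of D8 depleted with ND had the most calls, with 20 of 32 members lower and 1 higher, where 13% of all tested genes were called lower and 15.5% higher. The member median was -0.50 against 0.02 over all tested genes in the authors' deposited table. Against D8, which shares the time of diabetes, 10 members fell in D8 depleted and 1 rose, where 4.9% of all tested genes were called lower and 5.85% higher. The member median there was -0.22. The count fell from 10 to 5 when the length and GC trend was taken off, with Sqle, Lss, Sc5d, Elovl6 and Scd2 no longer called, while the member median was -0.26 in place of -0.22, and the rise of Tm7sf2 was not called at a threshold of 0.01. In D10 repopulated, 9 members fell against ND and none rose, where 4.19% of all tested genes were called lower, and the member median was -0.28. That count was 15 with the length and GC trend taken off. The shares of all genes called with that trend taken off were not computed. Against D10, no member was called in D10 repopulated, where 0.446% of all tested genes were called in either direction. The deposited fold changes of the members there had a median of -0.05, and 20 of 32 lay below 0, as did 50.2% of all tested genes. An unadjusted p under 0.05 was found for 1 member (Cyp51, log2 -0.23) and for 7.27% of all tested genes. No member was called in ND repopulated against ND either, where 0.156% of all tested genes were called in either direction. The member median in ND repopulated was -0.05, and 24 of 32 lay below 0, as did 51.3% of all tested genes. There, 1 member (Lss, log2 -0.31) and 2.48% of all tested genes had an unadjusted p under 0.05.

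**Figure D2:**
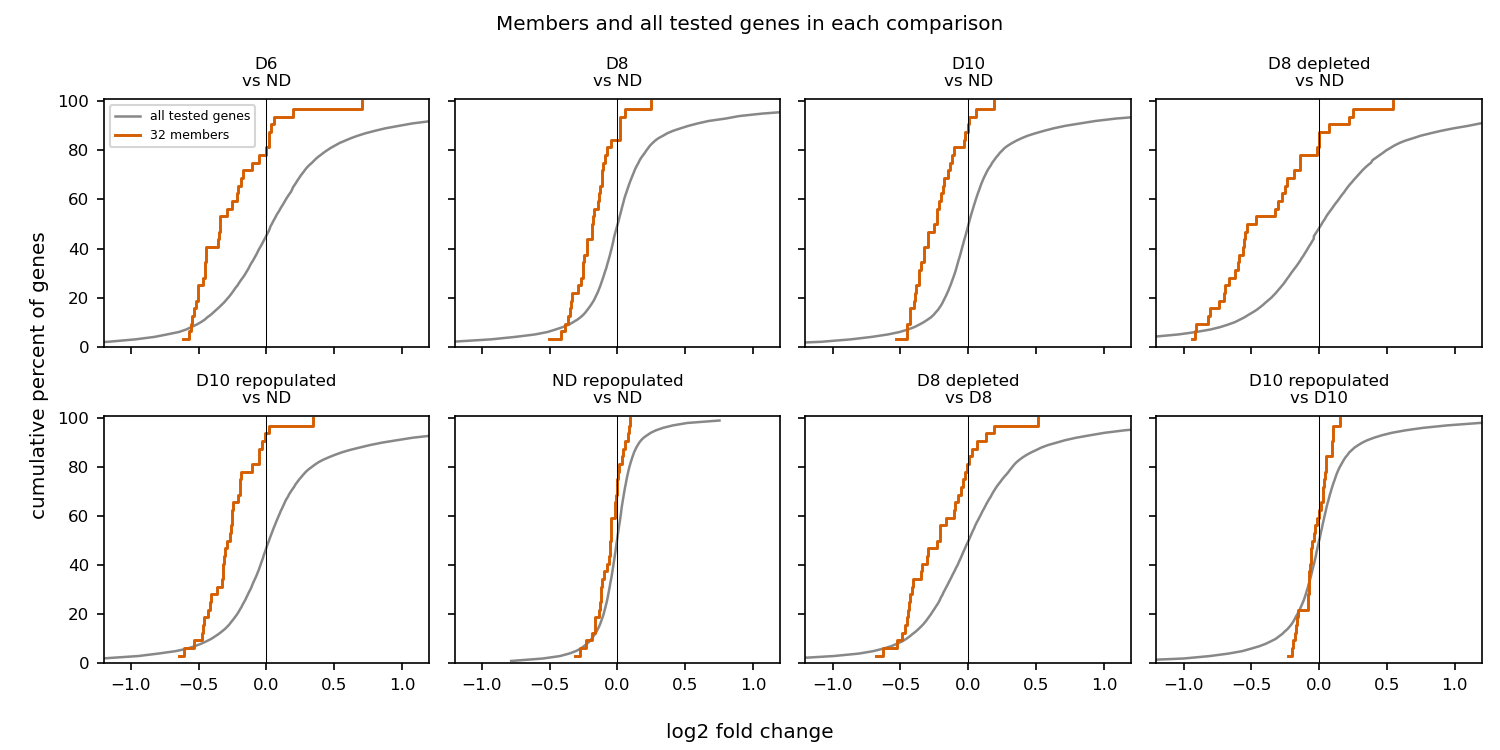
Cumulative percent of genes (vertical axis) at or below each log2 fold change (horizontal axis) for the 32 members (orange steps) and all tested genes (grey) in the 8 comparisons. The orange steps lie left of the grey line over most of their height in the diabetic groups against ND, with medians of -0.34 in D6 and -0.50 in D8 depleted, and close to it in ND repopulated.

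Members differed in how often they were called. Hmgcs1, Idi1 and Sqle were called lower in 5 comparisons (D6, D10, D8 depleted and D10 repopulated against ND, and D8 depleted against D8). Cyp51, Srebf2, Elovl6 and Scd2 were called in 4. At the other end, 7 members were called in none: Acat2, Mvk, Pmvk, Mvd, Scap, Acaca and Fasn. The comparisons against ND share their controls, so a gene called in several of them is not several independent observations.

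Of the 8 enzymes that lead from acetyl-CoA to squalene, 3 fell in each of D6, D10, D8 depleted and D10 repopulated against ND. Hmgcs1 (13:120151915-120169796 on GRCm39, plus strand, with no overlapping gene) encodes the synthase that makes HMG-CoA, the precursor of mevalonate. Its group mean was 30.6 in ND and 24.5 in D8 in the authors' deposited tables. Its log2 fold change over ND was -0.45 in D6 (SE 0.14, adjusted p = 0.0112), -0.35 in D8 (SE 0.14, adjusted p = 0.218) and -0.45 in D10 (SE 0.14, adjusted p = 0.0239) in the authors' deposited tables. It was -0.81 in D8 depleted (SE 0.15, adjusted p = 3.29e-06), -0.46 in D10 repopulated and -0.12 in ND repopulated over ND in the authors' deposited tables. Hmgcs1 thus stood lowest in D8 depleted, where it fell by 42.9% from ND and fell by 27.6% from D8.

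Idi1 (13:8935537-8942487, plus strand) encodes the isomerase that makes dimethylallyl diphosphate, the starter unit of isoprenoid chains. Its group mean was 15.5 in ND and 12.04 in D8 in the authors' deposited tables. The log2 fold change over ND was -0.55 in D6 (SE 0.13), -0.39 in D8 (SE 0.13, adjusted p = 0.0711), -0.45 in D10 (SE 0.13) and -0.91 in D8 depleted (SE 0.14, adjusted p = 4.83e-09) in the authors' deposited tables. Idi1 had the smallest adjusted p of any member in any comparison in D8 depleted against ND. Over ND it was -0.64 in D10 repopulated (SE 0.13, adjusted p = 2.38e-05) and -0.12 in ND repopulated (SE 0.13) in the authors' deposited tables. Idi1 overlaps the predicted gene Gm48574 on the opposite strand.

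Fdps, which makes farnesyl diphosphate, showed smaller steps that were called in the diabetic groups at 6 and 10 weeks. Its log2 fold change over ND was -0.25 in D6 (SE 0.09, adjusted p = 0.0225), -0.33 in D10 (SE 0.09, adjusted p = 0.00424) and -0.32 in D10 repopulated (SE 0.09, adjusted p = 0.00402) in the authors' deposited tables. In D8 depleted it was -0.14 (SE 0.09, adjusted p = 0.254) in the authors' deposited table, so Fdps was not among the genes called in D8 depleted over ND. Fdft1, the squalene synthase, was called in D8 depleted over ND alone, at log2 -0.28 (SE 0.11, adjusted p = 0.0386), and stood at -0.29 (SE 0.10, adjusted p = 0.0501) in D10 in the authors' deposited tables. Ctsb, which overlaps Fdft1 on the opposite strand, was also called lower in D8 depleted over ND (log2 -0.46, SE 0.15, adjusted p = 0.0125) and in no other comparison of the authors' deposited tables. Fdps overlaps the predicted gene Gm43738 on its own strand; no source used here says whether the counting used strand.

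The kinases and the decarboxylase between Hmgcs1 and Idi1 did not pass the test in any comparison. Mvk, mevalonate kinase, ranged from -0.36 in D10 (adjusted p = 0.114) to -0.02 in ND repopulated over ND in the authors' deposited tables. Pmvk, the next kinase, lay between -0.20 in D10 repopulated and 0.22 in D8 depleted over ND in the authors' deposited tables. Mvd, the decarboxylase, lay between -0.30 in D10 repopulated and 0.00 in D8 depleted. Acat2, an acetoacetyl-CoA thiolase, lay between -0.17 in ND repopulated and 0.02 in D8 over ND in the authors' deposited tables. The implied 95% interval of Acat2 over ND was -0.26 to 0.25 in D6 and -0.27 to 0.27 in D8 depleted. That of Hmgcs1 was -0.72 to -0.17 in D6, overlapping that of Acat2, and -1.10 to -0.51 in D8 depleted. That of Idi1 was -0.80 to -0.30 in D6 and -1.18 to -0.64 in D8 depleted. Differences between genes were not tested.

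Of the 10 enzymes from squalene to cholesterol, 7 fell in D6, 4 in D10, 7 in D8 depleted and 4 in D10 repopulated, each against ND, and 1 rose in D8 depleted. Sqle (15:59186926-59203041, plus strand, with no overlapping gene) encodes squalene epoxidase, which adds the oxygen needed for ring closure. Its group mean was 13.9 in ND and 11.5 in D8 in the authors' deposited tables. Its log2 fold change over ND was -0.57 in D6 (SE 0.13, adjusted p = 0.000163), -0.29 in D8 (SE 0.13, adjusted p = 0.281), -0.40 in D10 (SE 0.13, adjusted p = 0.0238) and -0.70 in D8 depleted (SE 0.13, adjusted p = 7.43e-06) in the authors' deposited tables. Sqle stood at -0.47 in D10 repopulated (SE 0.13, adjusted p = 0.00375) and -0.13 in ND repopulated over ND in the authors' deposited tables. The change against D8 in D8 depleted was -0.41 (SE 0.14, adjusted p = 0.0324) in the authors' deposited table, and this call was lost with the length and GC trend taken off (adjusted p = 0.0889).

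Cyp51 (5:4131145-4154746, minus strand) encodes the demethylase that removes the first methyl group after ring closure. Its log2 fold change over ND was -0.50 in D6 (SE 0.11, adjusted p = 0.000202), -0.36 in D8 (SE 0.11, adjusted p = 0.0504), -0.39 in D10 (SE 0.11, adjusted p = 0.0126) and -0.70 in D8 depleted (SE 0.12, adjusted p = 4.77e-07) in the authors' deposited tables. In D10 repopulated it was -0.61 (SE 0.11, adjusted p = 5.12e-06), the smallest adjusted p of a member in that table of the authors. Cyp51 overlaps Akap9, which lies on the opposite strand and was called in none of the 8 deposited tables. Msmo1, which removes the remaining methyl groups, was called in D6 (log2 -0.52), D8 depleted (-0.53) and D10 repopulated (-0.54), each with an SE between 0.13 and 0.14 in the authors' deposited tables. Nsdhl, which acts in the same step, was called in D6 (log2 -0.56), D10 (-0.53) and D8 depleted (-0.56) over ND in the authors' deposited tables.

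Several later enzymes were called in some groups and not in others. Dhcr7, the last reductase of a branch that ends in cholesterol, was called in D6 (log2 -0.36, adjusted p = 0.0247), D10 (-0.43, adjusted p = 0.0136) and D10 repopulated (-0.48, adjusted p = 0.00344) in the authors' deposited tables. In D8 depleted over ND Dhcr7 stood at -0.25 (SE 0.14, adjusted p = 0.149) in the authors' deposited table. Dhcr7 and Fdps were thus called in D6, D10 and D10 repopulated over ND but not in D8 depleted over ND. That difference was not tested. Lss, which closes the ring, was called in D8 depleted over ND (log2 -0.60, adjusted p = 0.000102) and over D8 (-0.43, adjusted p = 0.0293) in the authors' deposited tables. Sc5d, a desaturase, fell in D6 (log2 -0.45) and D8 depleted (-0.62) over ND and in D8 depleted over D8 (-0.44, adjusted p = 0.0373) in the authors' deposited tables. Ebp, the sterol isomerase, was called in D6 alone (log2 -0.45, SE 0.16, adjusted p = 0.024) in the authors' deposited tables. Hsd17b7, a ketosteroid reductase with an ND mean of 1.75, was called in D8 depleted against ND alone (log2 -0.74, SE 0.19, adjusted p = 0.00112) in the authors' deposited tables.

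Tm7sf2, one of the sterol C14 reductases, went the other way. Its group mean was 6.41 in ND, 6.62 in D8 and 9.65 in D8 depleted in the authors' deposited tables. It rose in D8 depleted over ND (log2 0.54, SE 0.16, adjusted p = 0.0035) and over D8 (0.52, SE 0.17, adjusted p = 0.0276) in the authors' deposited tables. In the other groups over ND it lay between -0.25 in D10 repopulated and 0.20 in D6. Tm7sf2 (19:6112851-6118403, minus strand) overlaps Vps51 on the same strand, and Vps51 stood at log2 0.05 over ND (adjusted p = 0.689) and -0.07 over D8 (adjusted p = 0.664) in D8 depleted in the authors' deposited tables.

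**Figure D3:**
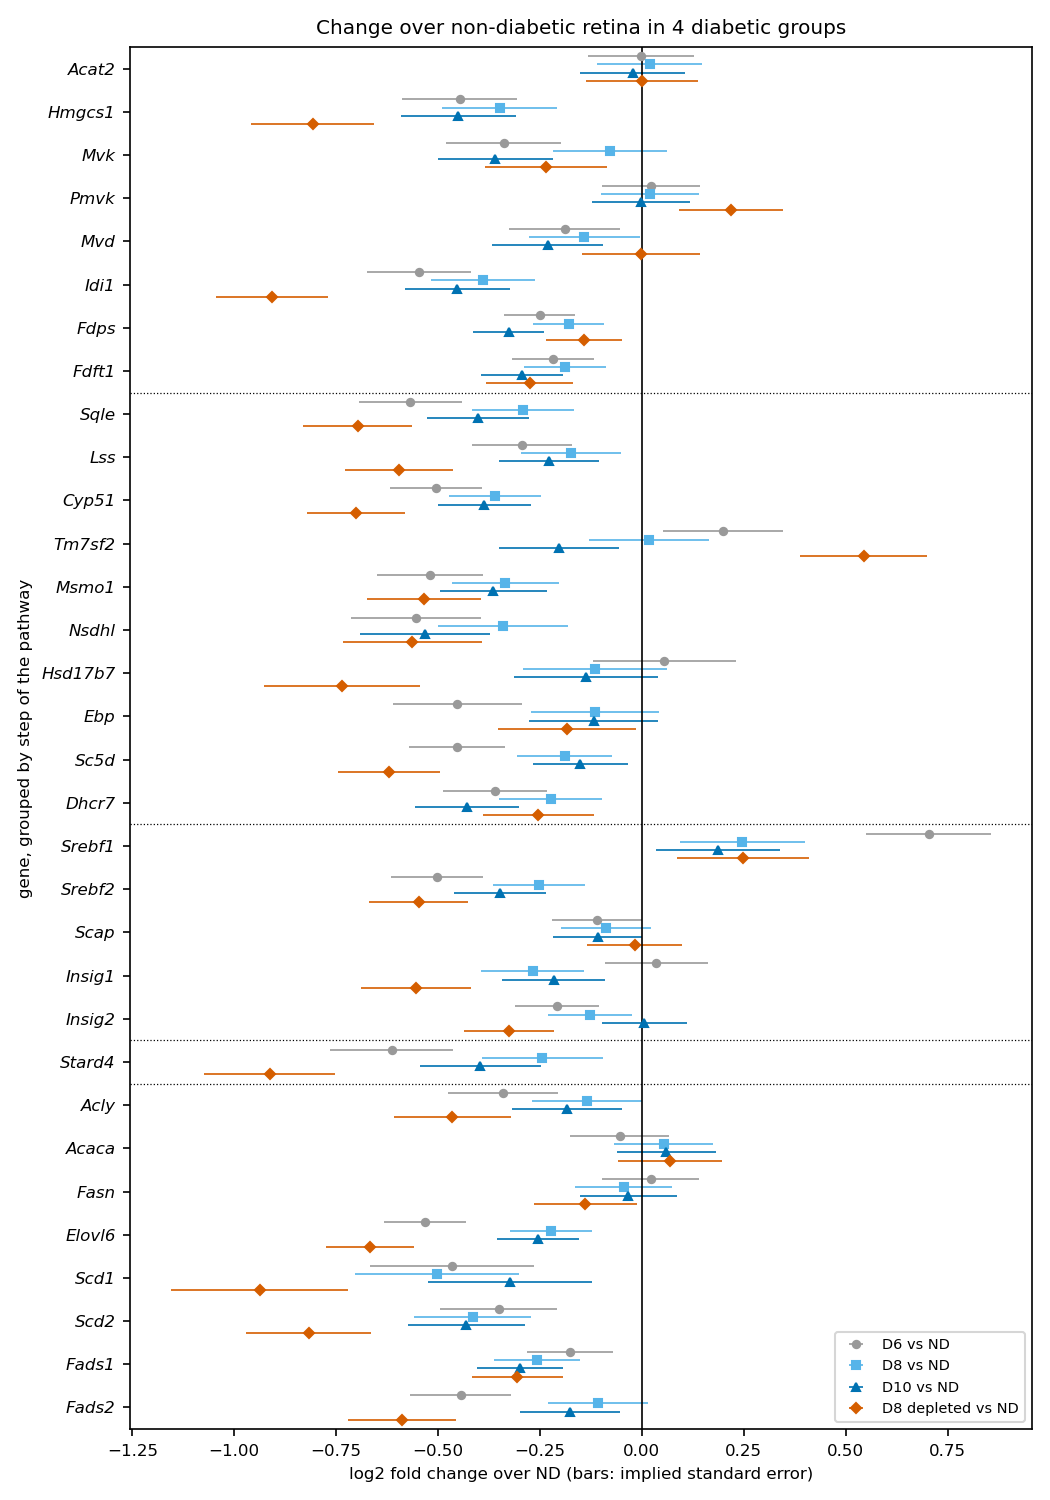
Log2 fold change over ND (horizontal axis) of each member (vertical axis) in D6, D8, D10 and D8 depleted; points are the deposited values and bars the implied standard error. Idi1, Hmgcs1, Stard4, Scd1 and Scd2 reach -0.81 or below in D8 depleted, while Acat2, Scap, Fasn and Acaca lie near 0 in all 4 groups.

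The genes that control the pathway did not move as a block. Srebf2 (15:82031382-82089580, plus strand) had a group mean of 25.1 in ND and 21.4 in D8 in the authors' deposited tables. Its log2 fold change over ND was -0.50 in D6 (SE 0.11, adjusted p = 0.000193), -0.25 in D8 (SE 0.11, adjusted p = 0.313), -0.35 in D10 (SE 0.11, adjusted p = 0.0322) and -0.55 in D8 depleted (SE 0.12, adjusted p = 9.55e-05) in the authors' deposited tables. It fell again between D8 and D8 depleted (log2 -0.30, SE 0.09, adjusted p = 0.0156), and stood at -0.29 in D10 repopulated over ND (SE 0.11, adjusted p = 0.0672) in the authors' deposited tables. Srebf2 overlaps the predicted gene Gm49502 on its own strand.

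Srebf1 (11:60089915-60113407, minus strand) was the member that rose in D6, from ND to a group mean of 31.6, at log2 0.70 (SE 0.15, adjusted p = 0.00011) in the authors' deposited table. The group means were 24.6 in D8, 23.4 in D10, 24.9 in D8 depleted and 25.9 in D10 repopulated, with log2 fold changes over ND of 0.25, 0.19, 0.25 and 0.35 that were not called in the deposited tables. The messenger RNAs of both SREBP genes thus had opposite signs in all 5 diabetic groups over ND, with calls for both in D6 alone. Srebf1 overlaps Rai1 on the opposite strand, and Rai1 was called lower in D6 (log2 -0.51, SE 0.12) and D8 depleted (log2 -0.36, SE 0.13) over ND in the authors' deposited tables.

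Insig1 was called in D8 depleted over ND alone (log2 -0.55, SE 0.13, adjusted p = 0.000479), and it stood at 0.04 in D6 (SE 0.13, adjusted p = 0.878) in the authors' deposited tables. Insig2 was called in the same comparison at log2 -0.33 (SE 0.11, adjusted p = 0.0156) in the authors' deposited table. Scap lay between -0.11 in D6 and 0.06 in D8 depleted over D8 across the 8 deposited tables. Both retention genes were thus called in D8 depleted over ND and in no other comparison. In D8 depleted over D8 neither was called, at log2 -0.29 for Insig1 (SE 0.12) and -0.21 for Insig2 (SE 0.13) in the authors' deposited table. In D8 over ND they stood at -0.27 and -0.13 and were not called in the authors' deposited table. The difference between D8 depleted and D6 was not tested because both comparisons share ND.

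Stard4, a carrier protein that moves sterol between membranes, had the lowest fold change of any member in D6 and in D8 depleted over D8. Its group mean was 3.52 in ND and 3.03 in D8 in the authors' deposited tables. The log2 fold change over ND was -0.61 in D6 (SE 0.15, adjusted p = 0.000694), -0.24 in D8 (SE 0.15, adjusted p = 0.588), -0.40 in D10 (SE 0.15, adjusted p = 0.094) and -0.91 in D8 depleted (SE 0.16, adjusted p = 7.94e-07) in the authors' deposited tables. Between D8 and D8 depleted it fell by 37.5% (log2 -0.68, SE 0.18, adjusted p = 0.00455) in the authors' deposited table.

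Of the 8 genes of fatty acid synthesis, elongation and desaturation, 2 fell in D6, 1 in D10, 6 in D8 depleted and 2 in D10 repopulated against ND, and 3 fell in D8 depleted against D8. The core synthesis enzymes were not among them. Fasn, fatty acid synthase, lay between -0.14 in D8 depleted over ND and 0.05 in D10 repopulated over D10, and Acaca, acetyl-CoA carboxylase, between -0.08 and 0.08 across the 8 deposited tables. Acly, which makes cytosolic acetyl-CoA for both pathways, was called in D8 depleted over ND (log2 -0.46, SE 0.14, adjusted p = 0.0073) and stood just outside the threshold in D6 (-0.34, SE 0.14, adjusted p = 0.0501) in the authors' deposited tables.

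Elovl6, which extends palmitate to stearate, was at log2 -0.53 in D6 (SE 0.10, adjusted p = 6.99e-06), -0.22 in D8, -0.25 in D10, -0.67 in D8 depleted (SE 0.11, adjusted p = 6.08e-08) and -0.31 in D10 repopulated over ND in the authors' deposited tables. Scd2, a stearoyl-CoA desaturase with a group mean of 52.7 in ND and 40.4 in D8, was at -0.35 in D6, -0.41 in D8, -0.43 in D10 (adjusted p = 0.0397), -0.82 in D8 depleted (SE 0.15, adjusted p = 3.45e-06) and -0.41 in D10 repopulated in the authors' deposited tables. Scd1, its paralog, had an ND mean of 1.77 and was called in D8 depleted over ND, at log2 -0.94 (SE 0.22, adjusted p = 0.000224), the lowest value of any member in that table of the authors. Reads shared between Scd1 and Scd2 could be split by the counting, so their separate values are uncertain.

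Fads2, the first desaturase of polyunsaturated fatty acid synthesis, fell in D6 (log2 -0.44, adjusted p = 0.00343) and in D8 depleted over ND (-0.59, adjusted p = 0.000134) and over D8 (-0.49, adjusted p = 0.0106) in the authors' deposited tables. Fads1, the next desaturase, was called in D8 depleted over ND alone (log2 -0.31, SE 0.11, adjusted p = 0.0273) and stood at -0.06 over D8 (SE 0.13, adjusted p = 0.828) in the authors' deposited tables. Its values over ND in D8 (-0.26) and D10 (-0.30) were close to that in D8 depleted in the authors' deposited tables.

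The effect of repopulation was compared with that of depletion by a normal test of the differences between comparisons that share no samples. The change from D10 to D10 repopulated lay above the change from D8 to D8 depleted for 23 of 32 members and below it for 9. Of all tested genes, 50.8% had a difference below 0. The median difference of the members was 0.21. No member passed Benjamini-Hochberg adjustment over all genes, where 0.654% of all tested genes were called. An unadjusted p under 0.05 was found for 9 members, 2 of them with a difference below 0, and for 11.6% of all tested genes. The smallest adjusted p was 0.174, that of Stard4, whose difference was 0.70 (95% interval 0.21 to 1.19). In the same normal test on the authors' values, the difference was 0.45 for Hmgcs1 (0.11 to 0.79, adjusted p = 0.235), and for Tm7sf2 it was -0.57 (-1.04 to -0.10, adjusted p = 0.306). Whether repopulation and depletion differ in their effect on a single member was therefore not detectable at this precision.

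The same test set depletion in diabetic retina beside repopulation in non-diabetic retina, which differ in diabetes and in time since depletion. They also differ in sample title numbers, which run from 2974 to 2983 in D8 and D10 and from 3006 to 3035 in the other groups. A change from D8 or D10 crosses these ranges, and the change from ND to ND repopulated does not. The change from D8 to D8 depleted lay below the change from ND to ND repopulated for 25 of 32 members and for 51.1% of all tested genes. The median difference of the members was -0.15. None passed, where 1.27% of all tested genes were called. An unadjusted p under 0.05 was found for 6 members, 5 of them with a difference below 0, and for 12.2% of all tested genes. In this test on the authors' values Elovl6 had the smallest adjusted p (difference -0.45, 95% interval -0.79 to -0.12, adjusted p = 0.192). Repopulation in diabetic and in non-diabetic retina differed by a median of 0.04 over the members. None was called, where 0.188% of all tested genes were called, and none had an unadjusted p under 0.05, against 3.82% of all tested genes. The 95% interval of that last difference was -0.26 to 0.47 for Hmgcs1 and -0.32 to 0.44 for Sqle, so changes of that size cannot be told from 0 here.

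**Figure D4:**
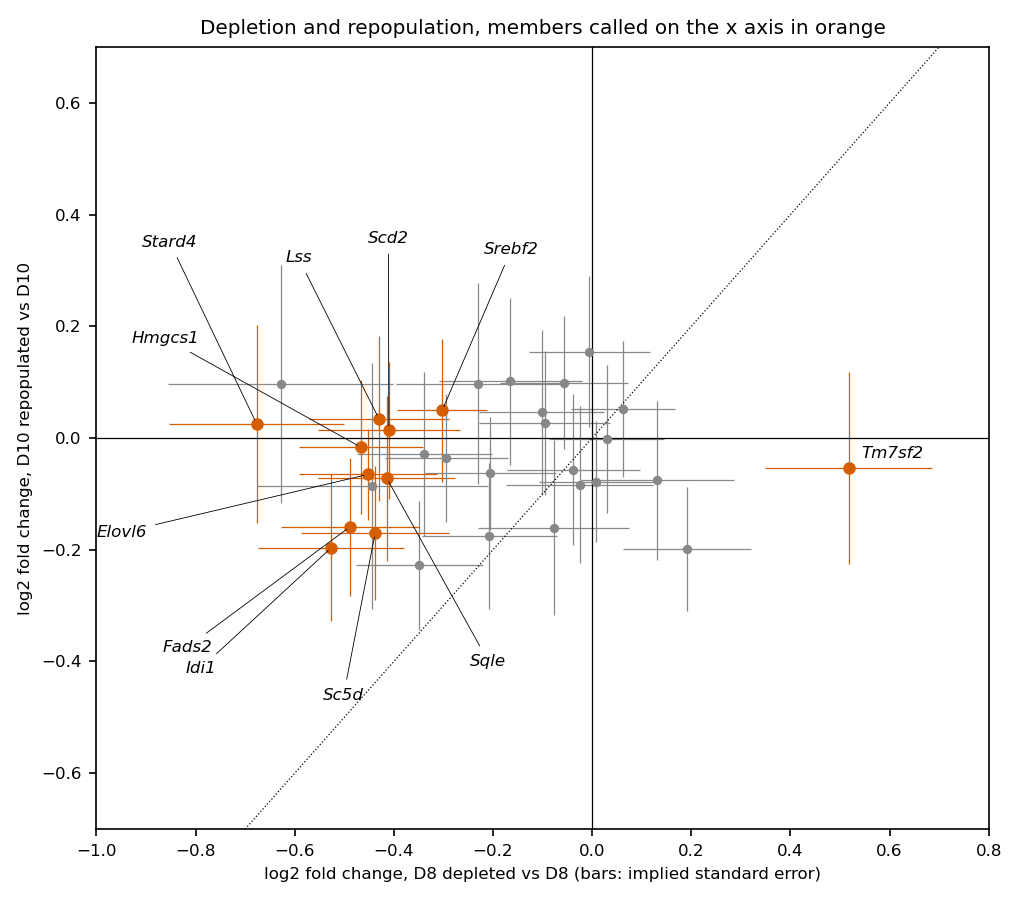
Log2 fold change of each member in D8 depleted against D8 (horizontal axis) and in D10 repopulated against D10 (vertical axis), with implied standard errors as bars; orange points are called on the horizontal axis and the dotted line marks equal change. The 10 orange points on the left lie between -0.68 and -0.30 horizontally, and Tm7sf2 stands alone on the right at 0.52.

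Neighbouring genes of the pathway outside the 32 gave mixed counts. Among 12 other sterol and isoprenoid enzymes, 4 rose and 1 fell in D6, 1 rose in D8, 1 rose in D10, 4 rose and 3 fell in D8 depleted, and 1 rose in D10 repopulated, each over ND. Over all tested genes, 2.33% were called higher in D8, 5.59% in D10 and 7.49% in D10 repopulated over ND. In D6 and D8 depleted, where 14.1% and 15.5% were called higher, nothing particular to this list is read from its counts. Soat1, which esterifies cholesterol, fell in D6 (log2 -0.40) and D8 depleted (-0.59) over ND in the authors' deposited tables. Ch25h, which makes 25-hydroxycholesterol, rose in all 5 diabetic groups over ND, by log2 4.63 in D6 (SE 0.53), 3.95 in D8 (SE 0.53), 5.26 in D10 (SE 0.53), 4.56 in D8 depleted (SE 0.56) and 5.15 in D10 repopulated (SE 0.53) in the authors' deposited tables. In ND repopulated Ch25h stood at 0.20 (SE 0.57) and was not called in the authors' deposited table. Cyp27a1, which makes 27-hydroxycholesterol, rose in D6 (log2 0.43) and D8 depleted (0.86) over ND in the authors' deposited tables. The other genes of this list that rose were Lbr in D6, Pdss1 in D6 and D8 depleted and Pdss2 in D8 depleted, and Ggps1 and Nus1 fell in D8 depleted. None of the 12 was called in D8 depleted over D8, D10 repopulated over D10 or ND repopulated over ND.

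Among 12 genes of SREBP processing and sterol sensing, 1 rose and 1 fell in D6, 2 rose and 1 fell in D8 depleted, and none was called in D8, D10 or D10 repopulated over ND, counts near the shares of all tested genes (9.31% lower and 14.1% higher in D6, 13% and 15.5% in D8 depleted). Erlin2, a membrane protein of the endoplasmic reticulum, fell in D6 (log2 -0.39), in D8 depleted over ND (-0.62) and over D8 (-0.53) in the authors' deposited tables. Nr1h2, which encodes the liver X receptor LXR-beta, rose in D8 depleted over ND (log2 0.46) and over D8 (0.34) in the authors' deposited tables. The other calls of this list were rises of Mylip in D6 and Npc2 in D8 depleted over ND. Of 16 other SREBP target genes, 4 fell and 1 rose in D6 and 1 fell in D10 over ND. In each of D8 depleted and D10 repopulated, 2 fell and 1 rose over ND. Over all tested genes, 9.31% were called lower and 14.1% higher in D6, and 1.41% lower in D10. The shares were 13% and 15.5% in D8 depleted, and 4.19% and 7.49% in D10 repopulated. In D8 depleted the counts of the 16 were near or below those shares. Rdh11, a retinol dehydrogenase, was at log2 -0.77 in D6, -0.38 in D10, -0.48 in D8 depleted and -0.61 in D10 repopulated, and Pnpla3, a lipid droplet protein, at -1.11 in D6, -1.36 in D8 depleted and -0.78 in D10 repopulated in the authors' deposited tables. Acss2 and Aacs, which activate acetate and acetoacetate, also fell in D6, and Lrp8 (D6), Thrsp (D8 depleted) and Acsl3 (D10 repopulated) rose. Pnpla3 was the 1 gene of the 16 called in D8 depleted over D8, at log2 -1.04. Of 19 other fatty acid enzymes, 2 fell (Elovl5, Hacd3) and 1 rose (Scd4) in D6, 2 fell (Elovl5, Acsl4) and 2 rose (Acacb, Mcat) in D8 depleted, and 1 fell (Elovl5) in D10 repopulated, each over ND. These counts were near or below the same shares of all tested genes, and nothing particular to this list is read from them. Elovl5, an elongase of polyunsaturated fatty acids, fell in D6 (log2 -0.31), D8 depleted (-0.52) and D10 repopulated (-0.36), and Acacb, the mitochondrial acetyl-CoA carboxylase, rose in D8 depleted over ND (0.86) and over D8 (0.98) in the authors' deposited tables.

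**Figure D5:**
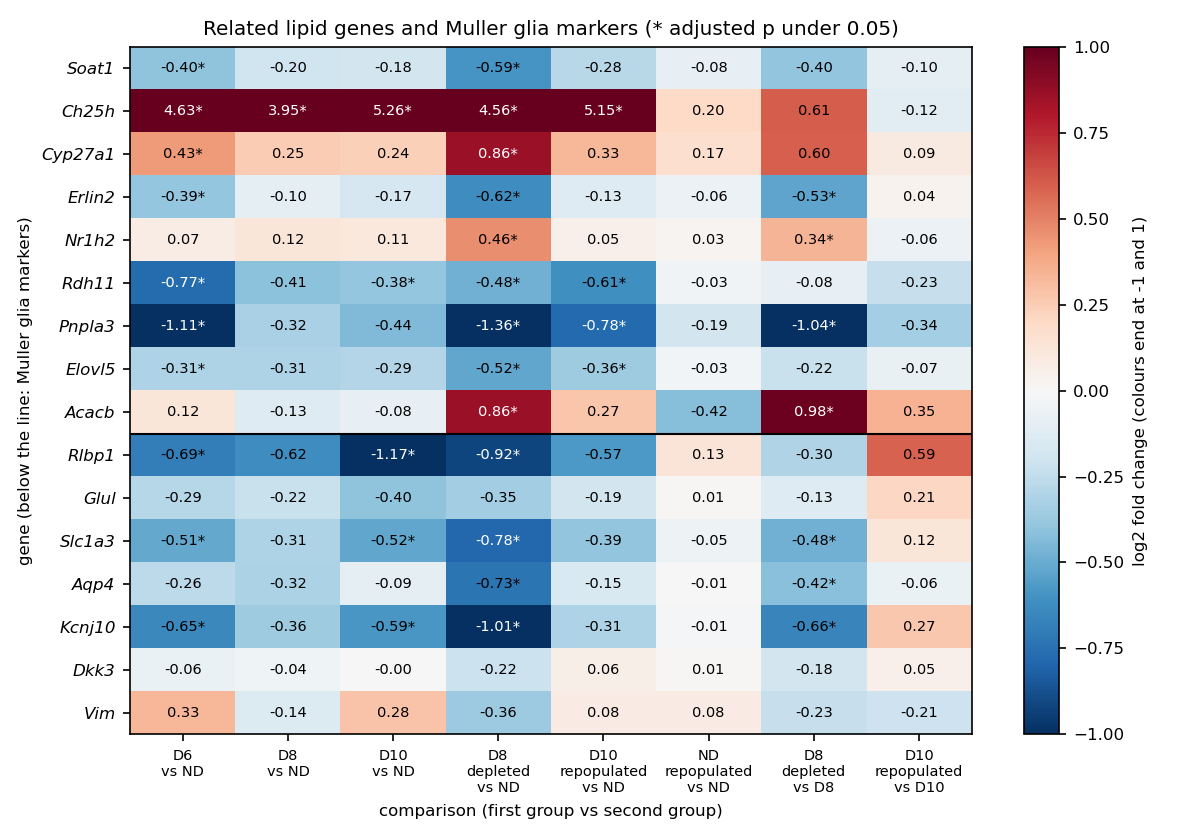
Log2 fold changes (numbers and colours, which end at -1 and 1) of 9 related lipid genes, picked from their lists after the values were seen, and of all 7 Muller glia markers (below the line) in the 8 comparisons; a star marks an adjusted p under 0.05. Ch25h is between 3.95 and 5.26 in every diabetic group over ND, and Kcnj10 falls to -1.01 in D8 depleted.

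Markers of several retinal cell types were called beside the members, and not always in the same comparisons. Of 7 Muller glia markers, 3 fell in D6 (median log2 -0.29), none in D8 (-0.31), 3 in D10 (-0.40), 4 in D8 depleted (-0.73) and none in D10 repopulated (-0.19), where 9 members were called, or ND repopulated (0.01), each over ND. In D8 depleted over D8, 3 of 7 fell (median -0.30), and in D10 repopulated over D10 none did (0.12). Kcnj10, a potassium channel of these cells, was at log2 -0.65 in D6, -0.59 in D10 and -1.01 in D8 depleted over ND in the authors' deposited tables. The part of Muller glia, or of the cell types that follow, in the results on the members was not tested. The ND means of the 7 markers summed to 1043, and none of their deposited levels was 0; summed levels in the other groups were not analysed here. Of 7 rod markers, Gnat1 and Pde6g fell in D6 and Gnat1 fell in D8 depleted over ND and over D8, while Sag rose in all 5 diabetic groups over ND. Of 6 ganglion cell markers, 2 fell in D6 and 3 in D8 depleted over ND (median -0.39), where 1 rose, and 3 fell in D8 depleted over D8 (median -0.26). Rbpms, also of this list, rose in D10 repopulated over ND. Of 6 cone markers, Opn1mw rose and Pde6h fell in D6, Arr3 rose in D8 and Pde6h fell in D10 over ND. Further, 3 cone markers fell in D8 depleted and 2 in D10 repopulated over ND, and 2 fell in D8 depleted over D8. Of 4 astrocyte markers, Gfap rose in all 5 diabetic groups over ND, and Aldh1l1 rose in D6, D8 depleted and D10 repopulated over ND and in D8 depleted over D8. Among 6 endothelium markers, Kdr fell in D6, D10, D8 depleted and D10 repopulated over ND and in D8 depleted over D8. Hmgcs1, Idi1 and Sqle were called lower in the same 5 comparisons. Slco1a4 fell in D6, D10 and D10 repopulated over ND, and Mfsd2a fell in D8 depleted over ND. Cdh5 rose in D6, D10 and D10 repopulated over ND.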

How the data were processed

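Libraries were made from poly(A) messenger RNA of 35 retina samples with a strand-marking kit and read as pairs of 100 bases, per the labels' protocols. Base calls were converted with bcl2fastq and the genome was GRCm39, per the submitters' processing notes; for the aligner, the counting, the scaling between libraries and the test, no name is given in the sources used here. There are 8 comparison tables of 25655 genes. Each holds a log2 fold change deposited by the authors, a p-value and an FDR-adjusted p-value deposited by the authors, and a signal level, which per the file headers is the larger of both group means, whose unit is not named. Recomputing the Benjamini-Hochberg adjustment over each table's adjusted genes gave the deposited FDR p-values within 0.000489. Genes with an FDR value counted as tested. Values per sample were not used here, so depth and replicate spread were not analysed and no model was refitted.

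From the tables, the sign of D10 against D10 repopulated was turned. The standard error was taken as the absolute log2 fold change over the normal quantile of p, and intervals cover 95%. The ND mean was read as the smallest level recurring in the 6 tables against ND, for 31 of the 32 members. D8 and D10 means come from the sign of the fold change, which matched the known larger mean in 94.9% of the 9341 cases that could be checked. The log2 ratio of the means lay within 0.051 of the deposited value. Differences between comparisons without shared samples were tested with a normal test on added variances, adjusted over all genes. The standard error and the difference test were run on simulated data with normal errors of the implied size. The reading of group means was not simulated. Python 3.11.15, numpy 2.4.6, pandas 2.3.3, scipy 1.17.1 and matplotlib 3.10.9 were used.

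All 32 members are named, and from each related list at most 4 called genes per comparison with the smallest p; not all of these are printed, and 1 gene of the sterol enzyme list is not reported here. Members, roles, related lists and markers were chosen with earlier results of these data known, so they lend no independent support. Alternatives were thresholds of 0.01 and 0.10, omission of the lowest 40 percent of level, centring on the median, and removal of a cubic trend on transcript length and GC content.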

Additional observations from a re-analysis of the deposited data

How the results depend on the processing

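Of 65 member calls over the 8 comparisons, 65 held when fold changes were centred on the median of genes in the upper 60 percent of level, 60 with a length and GC trend removed, and all 63 that were still tested held with low levels left out. At a threshold of 0.01, 40 held and 25 were lost. No direction reversed under these alternatives. At a threshold of 0.10, members called lower numbered 3 in D8 and 15 in D10 repopulated over ND. At a threshold of 0.01 they numbered 2 in D10 over ND and 3 in D8 depleted over D8, with 0 called higher in the latter. With the length and GC trend removed they numbered 15 in D10 over ND, 15 in D10 repopulated over ND and 5 in D8 depleted over D8. Beyond the thresholds themselves, the cause of these changes in count was not tested. The shares of all genes called under each alternative were not computed, so these counts have no background beside them. No paired analysis was possible because the labels give no replicate numbers shared between groups and the values used are comparisons of groups. Leaving out single replicates was not run, since values per sample were not analysed here. The precision is limited by an implied standard error whose median over the members was 0.13 to 0.14 in each of the 8 comparisons.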
